A study of Mus musculus with 4 samples.

Results

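The interleukin 1 family and inflammasome genes described here are Il1a, Il1b, Il1rn, Il1r1, Il1r2, Il1rap, Il18, Il33, Casp1 and Nlrp3, read in the aorta of mice from 4 groups. Members were all probe sets that the platform annotation assigns to exactly 1 of these 10 genes, which gave 17 of the 45101 probe sets on the array. All 10 genes had a probe set, of 18194 genes with one in all. No member probe set was assigned to several genes.

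Each group was measured on 1 Affymetrix array. The control groups were C57BL/6 apoE-/- mice (B6), whose label gives atherosclerosis and which have no apolipoprotein E, on chow or on Western diet. The other groups were Ath29 congenic mice on the C57BL/6 strain, labelled as resistant to atherosclerosis, on the same diets. A congenic strain holds a stretch of chromosome bred in from a donor, and the titles of these arrays read Ch9. The labels give apoE-/- for the controls only, and whether Ath29 mice also carry it is not stated there. Mice were weaned at 3 weeks of age, stayed on chow or changed to Western diet at 4 weeks, and were kept on the diet for 2 weeks. How many mice gave the RNA of an array is not in the labels. With 1 array per group, no difference between a pair of arrays has a replicate check or an error.

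Interleukin 1 cytokines are alarm signals of innate immunity. Interleukin 1 alpha and beta bind a receptor made of IL1R1 and its partner IL1RAP and turn on NF-kB, while the antagonist IL1RN occupies the same receptor without signalling and IL1R2 acts as a decoy. Interleukin 1 beta and interleukin 18 are made as inactive precursors that caspase 1 cuts inside the inflammasome, a complex assembled around sensors such as NLRP3. Interleukin 33 is stored in the nuclei of endothelial and stromal cells and is released when they are damaged. In atherosclerosis, cholesterol crystals taken up by macrophages are a known trigger of NLRP3.

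Il33 is shown with its start sites because its level differed most evenly with diet, and Casp1 and Nlrp3 because their levels also lay higher on Western diet in both strains. The 5 windows below are RefSeq sequences of GRCm38.p6, each of 300 bases from 250 before to 50 after a start site and written on the gene's own strand. All 5 are on the plus strand. Capitals mark matches, on either strand, to the NF-kB consensus site, the AP-1 site (TGANTCA), the gamma-activated pattern (TTCNNNGAA), the TATA box (TATAAA) or the core of the PU.1 site (GAGGAA).
Il33, chr19:29924863-29925162: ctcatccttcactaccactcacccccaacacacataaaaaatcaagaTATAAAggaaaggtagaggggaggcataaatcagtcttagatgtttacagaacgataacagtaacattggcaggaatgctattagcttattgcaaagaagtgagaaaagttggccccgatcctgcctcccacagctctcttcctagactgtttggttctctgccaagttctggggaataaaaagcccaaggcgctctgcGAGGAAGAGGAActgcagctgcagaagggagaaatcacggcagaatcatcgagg
Il33, chr19:29945540-29945839: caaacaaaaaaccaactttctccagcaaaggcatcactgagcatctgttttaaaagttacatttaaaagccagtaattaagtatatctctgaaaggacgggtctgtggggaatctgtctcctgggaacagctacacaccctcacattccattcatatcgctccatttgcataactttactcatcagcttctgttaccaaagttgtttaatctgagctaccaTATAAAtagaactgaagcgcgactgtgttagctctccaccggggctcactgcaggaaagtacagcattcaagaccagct
Casp1, chr9:5298267-5298566: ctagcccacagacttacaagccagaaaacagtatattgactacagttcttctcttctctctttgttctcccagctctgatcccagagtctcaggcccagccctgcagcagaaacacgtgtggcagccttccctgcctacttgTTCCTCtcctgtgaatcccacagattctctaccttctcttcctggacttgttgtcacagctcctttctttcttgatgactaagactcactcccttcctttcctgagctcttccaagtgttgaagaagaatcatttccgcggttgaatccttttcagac
Nlrp3, chr11:59541319-59541618: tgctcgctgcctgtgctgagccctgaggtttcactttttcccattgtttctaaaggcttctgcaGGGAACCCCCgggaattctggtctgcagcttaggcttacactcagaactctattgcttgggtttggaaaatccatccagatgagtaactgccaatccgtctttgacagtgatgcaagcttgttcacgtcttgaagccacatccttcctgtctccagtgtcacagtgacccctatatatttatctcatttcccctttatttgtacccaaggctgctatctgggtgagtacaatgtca
Nlrp3, chr11:59542436-59542735: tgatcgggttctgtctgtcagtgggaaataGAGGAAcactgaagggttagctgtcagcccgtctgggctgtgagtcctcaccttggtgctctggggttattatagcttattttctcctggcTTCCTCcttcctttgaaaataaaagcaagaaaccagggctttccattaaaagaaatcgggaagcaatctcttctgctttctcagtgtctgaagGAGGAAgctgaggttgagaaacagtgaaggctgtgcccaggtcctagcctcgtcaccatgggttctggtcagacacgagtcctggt

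Both Il33 windows held the TATA box, at positions -203 and -29 from the respective start site. The first of them also held GAGGAA a pair of times, next to each other at the start site, and the second did not hold it. The first Nlrp3 window held 1 match to the NF-kB consensus, at position -186, while the second held GAGGAA at 3 places and the Casp1 window at 1. Of all 32851 promoter windows of this length, 8.46% hold the NF-kB consensus, 7.81% the AP-1 site, 8.30% the gamma-activated pattern, 13.6% the TATA box and 28.3% GAGGAA. The table gave 15 windows for the 10 genes. Of these 15, 2 held the NF-kB consensus, 2 the AP-1 site, 1 the gamma-activated pattern, 6 the TATA box and 4 GAGGAA. A match is a description of letters and not a site of binding.

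Signal is given as the deposited intensity on a linear scale, and differences are log2 differences after arrays were shifted to a common median, with values under 9.60 raised to that floor. Levels of different probe sets are not read against each other as amounts of RNA. Sums over a marker list add them, so a sum follows its probe sets of highest intensity and is compared between arrays only. A probe set was kept where its mean log2 level lay above that of the median probe set, which is 27.4 on the intensity scale, and a single reading under 27.4 is treated as possible background. Array medians ran from 27.9 to 28.8. Of the 17 member probe sets, 8 were above the filter and 9 below it. After the shift, 5 read above 27.4 on all 4 arrays, 9 on none of them, and 3 on some of them. The 9 below the filter read between 1 and 26.6, and 14 of their 36 values lay at the floor.

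**Figure D1:**
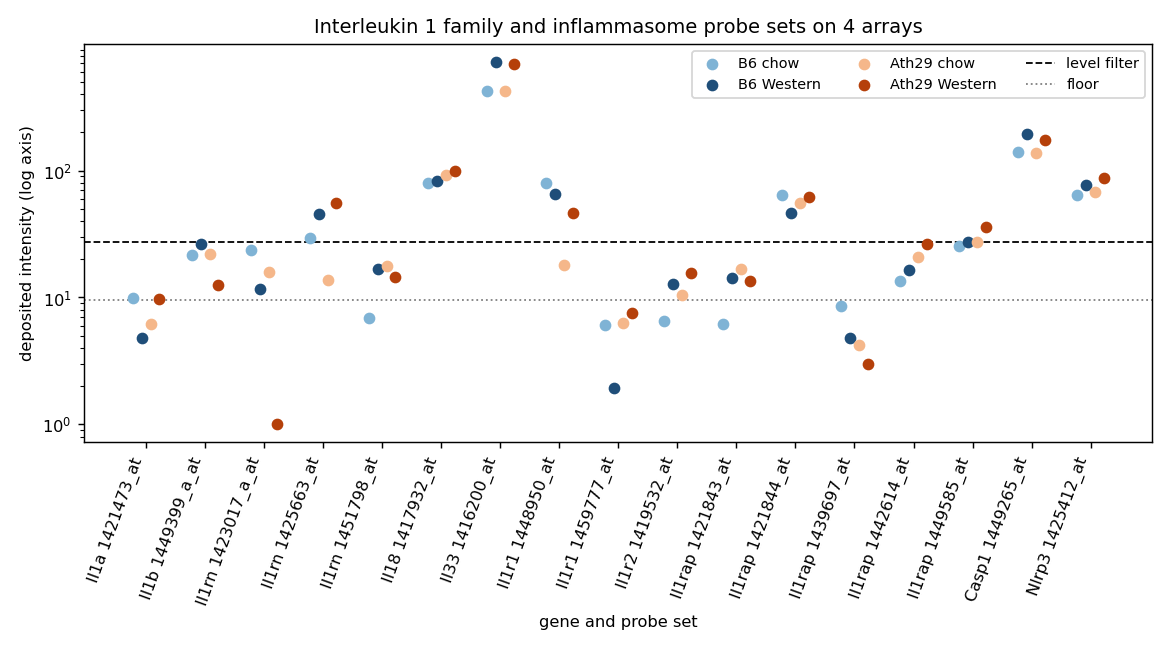
Deposited intensity (log axis) of the 17 member probe sets on the 4 arrays, 1 point per array, with the level filter of 27.4 dashed and the floor of 9.60 dotted. Il33, Il18, Casp1, Nlrp3 and 1 Il1rap probe set lie above the filter on every array, while Il1a, Il1b and Il1r2 lie below it on every array.

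Il33, the alarm cytokine of chromosome 19, had nearly the same level in both strains on each diet and a higher level on Western diet. Its probe set read 425.70 in B6 chow and 424.81 in Ath29 chow, and 717.48 in B6 Western and 696.35 in Ath29 Western. Both Western arrays lay above both chow arrays. On the log2 scale the diet difference was 0.71 for B6, or 1.64-fold, and 0.72 for Ath29, or 1.65-fold. Between strains it was -0.05 on chow and -0.04 on Western diet, and the strain by diet difference was 0.01. The sign of the strain differences turned with the scaling of the arrays, reaching 0.07 on chow and 0.03 on Western diet with quantile normalization.

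Il18, the other stored cytokine, lies on chromosome 9, and the titles of the Ath29 arrays read Ch9. Whether the gene lies in the stretch bred in from the donor was not known from the sources used here. Il18 read 79.74 in B6 chow, 92.38 in Ath29 chow, 83.37 in B6 Western and 98.78 in Ath29 Western. Both Ath29 arrays lay above both B6 arrays, by 0.17 log2 units on chow and 0.25 on Western diet. Diet moved it by 0.02 in B6 and 0.11 in Ath29 mice.

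Il1b and Il1a, the ligands that activate the interleukin 1 receptor, gave no signal that could be told from background. The Il1b probe set read 21.46 in B6 chow, 22.00 in Ath29 chow, 26.59 in B6 Western and 12.47 in Ath29 Western. Ath29 Western was the lowest of these values, and all 4 lay below 27.4. Il1a read 9.94, 6.14, 4.80 and 9.69 in the same order, around the floor. These readings set no level for either cytokine, and protein or release was not measured.

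Il1rn, the receptor antagonist, has 3 probe sets that did not run together. Probe set 1425663_at read 29.22 in B6 chow, 13.78 in Ath29 chow, 45.51 in B6 Western and 55.44 in Ath29 Western. Both Western arrays lay above both chow arrays, and the Ath29 chow value lay below 27.4. On the log2 scale the diet difference was 0.60 for B6 and 2.02 for Ath29 arrays, and the strain difference was -1.13 on chow and 0.29 on Western diet. Probe set 1423017_a_at read 23.52, 15.97, 11.59 and 1 in B6 chow, Ath29 chow, B6 Western and Ath29 Western, lower on Western diet in both strains. Probe set 1451798_at read 6.83, 17.80, 16.62 and 14.51 in the same order. Neither of these last probe sets passed 27.4 on any array.

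Among the receptors, Il1r1, the signalling receptor of interleukin 1, was low on 1 array. Its probe set 1448950_at read 80.60 in B6 chow, 17.88 in Ath29 chow, 65.50 in B6 Western and 46.02 in Ath29 Western. Both B6 arrays lay above both Ath29 arrays, and the Ath29 chow value was the lowest and in the range of background. The strain difference was -2.22 log2 units on chow and -0.50 on Western diet, and the diet difference was -0.34 in B6 and 1.37 in Ath29 mice. The other Il1r1 probe set lay at the floor on every array.

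The level of Il1rap, the shared receptor partner on chromosome 16, depended on the probe set. Probe set 1421844_at read 64.02 in B6 chow, 55.55 in Ath29 chow, 46.17 in B6 Western and 61.69 in Ath29 Western, a spread of 1.43-fold from lowest to highest. Probe set 1449585_at read 25.58, 27.35, 27.56 and 35.85 in the same order. After the median shift it was above the filter level in 1 array, Ath29 Western, with B6 Western just under it. B6 Western was the lowest array in the first, and in the second B6 chow was. The 3 others lay below the filter on every array. Il1r2, the decoy receptor, read 6.50, 10.50, 12.81 and 15.49 in that order, also below it throughout.

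Of the inflammasome genes, Casp1, the caspase that cuts the precursors, lies on chromosome 9 and read 140.74 in B6 chow, 136.55 in Ath29 chow, 194.16 in B6 Western and 173.45 in Ath29 Western. Both Western arrays lay above both chow arrays, by 0.42 (B6) and 0.36 (Ath29) on the log2 scale, or 1.34-fold and 1.28-fold. The strain difference was -0.09 on chow and -0.15 on Western diet. Nlrp3, the sensor on chromosome 11, read 64.41, 68.35, 76.77 and 87.52 in B6 chow, Ath29 chow, B6 Western and Ath29 Western. Again both Western arrays were the higher ones, by 0.21 in B6 and 0.37 in Ath29 mice, and the strain differences were 0.04 and 0.20.

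**Figure D2:**
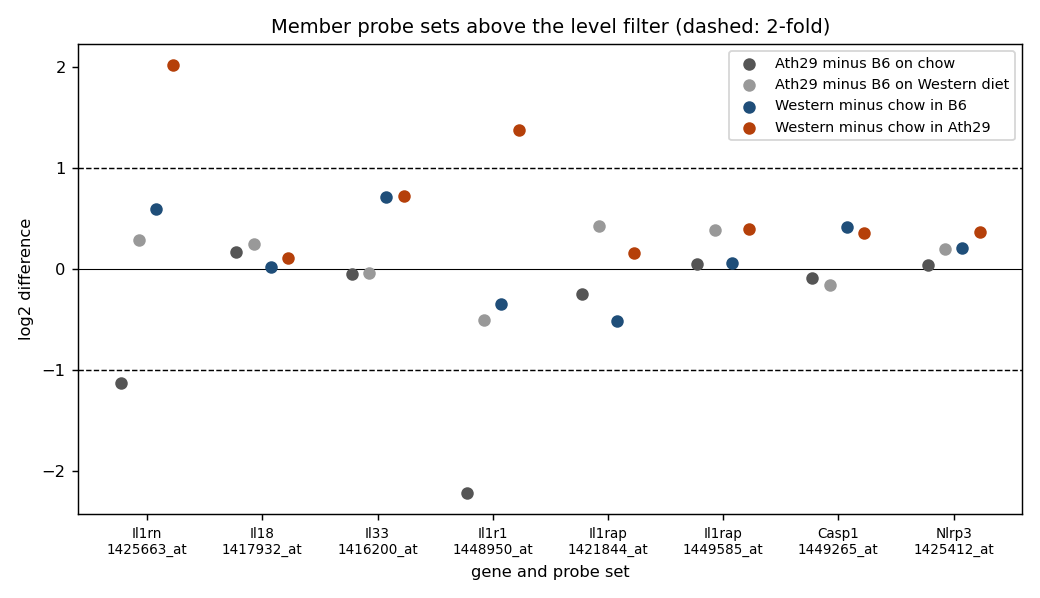
Log2 differences of the 8 member probe sets above the filter in the 4 comparisons, 1 point per comparison, with dashed lines at 2-fold. The points past 2-fold belong to Il1rn and Il1r1 and all involve the Ath29 chow array.

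Counted over the 8 probe sets above the filter, 2-fold differences were few. Between strains on chow, 0 were at least 2-fold higher and 2, Il1rn and Il1r1, at least 2-fold lower in Ath29 mice, where 2.07% and 2.16% of the 19152 single-gene probe sets above the filter were higher and lower. On Western diet 0 differed by 2-fold in either direction, against 0.976% higher and 2.15% lower among all. Between diets, 0 differed by 2-fold in B6 mice, against 3.8% higher and 1.26% lower among all. In Ath29 mice 2, again Il1rn and Il1r1, were higher on Western diet and 0 lower, against 1.42% and 0.982%. All 4 of these calls rest on an Ath29 chow value of 13.78 or 17.88, below 27.4, so their sizes are not exact. When both arrays of a difference had to read above 27.4, 0 calls were left.

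Il1rn and 1 Il1rap probe set passed the filter through their higher arrays, so counts over the 8 are descriptions. Of the 8 probe sets, 6 read higher on Western diet in both strains, against 19.9% of all probe sets above the filter. These were Il33, Casp1, Nlrp3, Il18, Il1rn and 1 of Il1rap. Of the 5 above 27.4 on all arrays it was 4, against 19.5% of the 17333 probe sets of that kind. At 1.5-fold in both strains it was 1 of these 5, Il33, against 0.594%. Il18, counted among the 4, was higher by only 0.02 log2 units in B6 mice. The median diet difference of the 5 was 0.21 in B6 and 0.36 in Ath29 mice, against -0.06 and 0.05 over the 17333. Their median strain difference was -0.05 on chow and 0.20 on Western diet, against -0.08 and 0.00. The pair of diet differences shares no array.

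**Figure D3:**
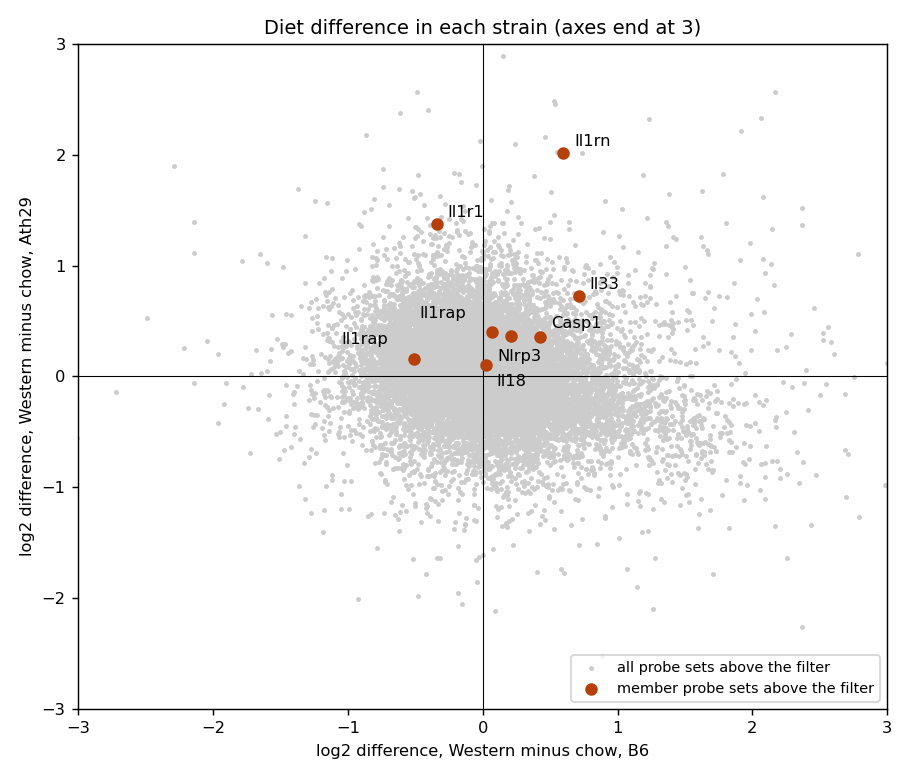
Western minus chow log2 difference in B6 (x axis) and in Ath29 mice (y axis) for the 19152 single-gene probe sets above the filter (grey) and the 8 member probe sets among them (coloured), with 27 grey points beyond the axis ends. Il33 lies at 0.71 and 0.72, Casp1 at 0.42 and 0.36, while Il1r1 lies at -0.34 and 1.37.

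An additive limma fit of strain and diet over the 19152 probe sets called none of the members. Its error term starts from what strain and diet do not add up to, with 1 residual degree of freedom per probe set. limma then moderates this variance with one shared over all probe sets. Il33, whose strain by diet difference was 0.01, got an SE of 0.26, as did Casp1, Il18 and Nlrp3. The SE values below are moderated in this way and are not the spread of a single probe set. With Benjamini-Hochberg adjustment it called 0.0157% of all probe sets for strain and 0% for diet at an adjusted p under 0.05. The Il33 diet effect was 0.72 ± 0.26 log2 units (SE, 4 arrays), with an unadjusted limma p of 0.0257 and an adjusted p of 0.999966. The strain effect of Il1r1 was -1.36 ± 0.41, with a limma p of 0.0111 and an adjusted p of 0.999864. Of the 8 member probe sets, 2, Il33 and Il1rn, had an unadjusted limma p under 0.05 for diet and 1, Il1r1, for strain. Of all 19152 it was 517 and 592. The Il1rn and Il1r1 values rest on an Ath29 chow reading below 27.4, and Il1rn passed the filter through its Western arrays, so they are given as a description.

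The remaining genes of the family stayed near background as well. Of the 5 other ligand genes with a probe set, 3 passed the filter: Il1f10, Il1f9 and Il1f5, the last known as the receptor antagonist of interleukin 36. None of these 3 was 2-fold different in any comparison, where 9.83% of all 19152 probe sets above the filter were in at least 1. A count of none in 3 genes thus says little. Their medians were -0.21 between diets in B6 and -0.69 in Ath29 mice. Of 8 other receptor and binding protein genes listed, 7 had a probe set. Only Il18bp, which neutralises interleukin 18, and Il1rl2, the interleukin 36 receptor, passed. Il1f10 and Il18bp read above 27.4 on all 4 arrays. Il18bp read 35.54, 43.36, 35.09 and 32.95 in B6 chow, Ath29 chow, B6 Western and Ath29 Western. Il1rl2 read 26.25, 30.75, 30.50 and 38.68 in the same order.

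Other inflammasome and pyroptosis genes showed no common diet difference. Of 22 listed, 17 had a probe set and 15 passed the filter, with a median diet difference of 0.02 in B6 and -0.01 in Ath29, and 3 of the 15 higher on Western diet in both strains, against 19.3% of the 11716 genes above the filter. The thioredoxin-binding protein gene Txnip read 4474.56, 4447.49, 4677.54 and 4033.27 in B6 chow, Ath29 chow, B6 Western and Ath29 Western. Nek7, the kinase that binds NLRP3, gave -0.20 and -0.19 between diets in the respective strains. Ninj1, which ruptures dying cells, gave 0.18 and -0.10, and Casp12 -0.39 and -0.01. Pycard, the adaptor between sensor and caspase, was named after its values were seen and read 187.46, 189.42, 171.39 and 206.98 in that order. Among the 15 above the filter, the only 2-fold difference was that of Naip5, with 1.02 between diets in B6 and -0.45 in Ath29 mice. Naip5, a sensor of bacterial flagellin, was also named afterwards. Among all 19152 probe sets above the filter, 9.83% were 2-fold different in at least 1 comparison, so 1 gene of 15 is nothing particular.

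Signalling genes between the receptor and NF-kB were near 0 as well. Of 19 listed, 16 had a probe set and 13 passed, and none was 2-fold different in any comparison. Among all 19152 probe sets above the filter, 9.83% were 2-fold different in at least 1 comparison. At such a share a count of none in 13 genes says nothing particular about this list. Their median diet difference was -0.03 in B6 and 0.06 in Ath29 mice. Rela, the NF-kB subunit, read 2090.15, 2293.18, 2089.57 and 2288.86 in B6 chow, Ath29 chow, B6 Western and Ath29 Western. The receptor kinase gene Irak1 was 0.18 and 0.19 higher on Western diet, and 0.26 and 0.28 higher in Ath29 than in B6 arrays on the respective diets. Irak2 gave -0.03 and 0.13 between diets, and the adaptor Tab2 0.00 and 0.17.

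Genes known to respond to interleukin 1, and to other activators of NF-kB, included several with large diet differences. Of 24 listed, all with a probe set, 14 passed the filter and 11 of these read above 27.4 on all 4 arrays. The median diet difference of the 11 was 0.43 in B6 and 0.77 in Ath29 mice, against -0.06 and 0.04 over the 10850 genes read that way. Of the 11, 2 were at least 2-fold higher on Western diet in both strains, Saa3 and Cxcl1, against 0.175%. The list was chosen with earlier results of these data known, so its medians and counts are descriptions. Saa3, an acute phase gene, read 74.40 in B6 chow, 337.92 in Ath29 chow, 617.66 in B6 Western and 839.59 in Ath29 Western. The chemokine gene Cxcl1 read 232.34, 269.04, 902.89 and 1243.75 in the same order. Another 3, the chemokine gene Cxcl2, the cytokine gene Il6 and Bcl3, which codes for an atypical inhibitor of NF-kB, were also past 2-fold in both strains, but with chow values below 27.4 that set no size. Cxcl2 and Il6 passed the filter through their Western arrays, and Bcl3 did not pass it.

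The listed response genes of highest level gave smaller or uneven diet differences. Nfkbia, the inhibitor that NF-kB itself induces, gave 0.05 in B6 and -0.01 in Ath29 mice. Sod2, the mitochondrial superoxide dismutase, gave 0.93 and -0.15. The adhesion molecule Vcam1 gave 0.09 and 0.57, and Tnfaip2, a gene induced by tumour necrosis factor, 0.43 and 0.96. Ccl2 lay at the floor on every array.

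**Figure D4:**
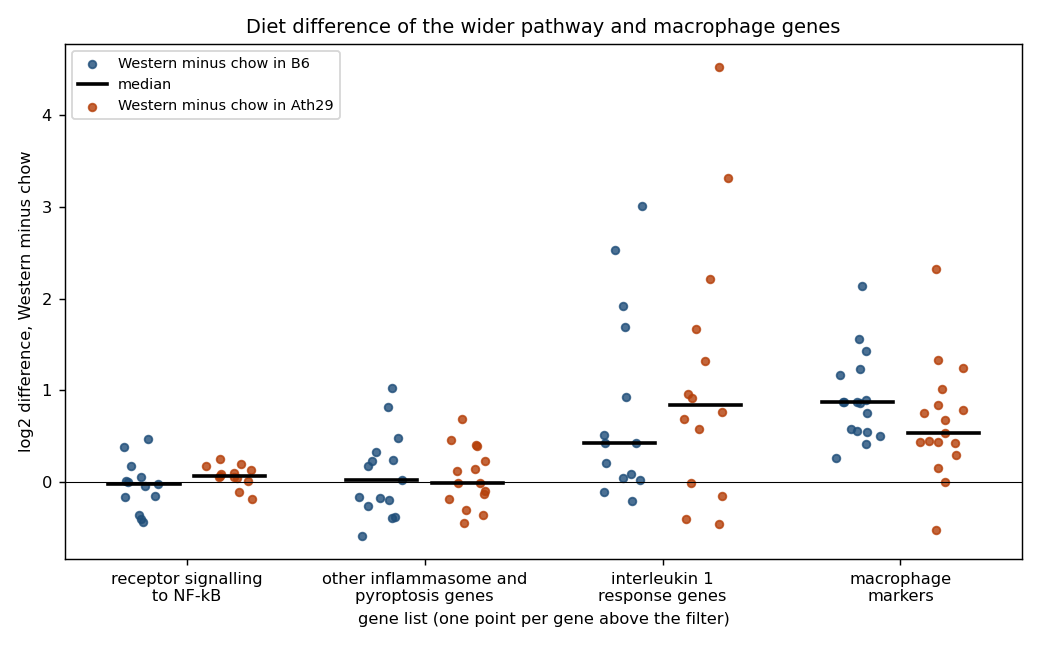
Western minus chow log2 differences of the genes above the filter in 4 lists, 1 point per gene, in B6 (blue) and Ath29 mice (orange), with black bars at the medians. Medians are near 0 for the signalling and inflammasome lists, 0.43 and 0.84 for the response genes and 0.87 and 0.53 for macrophage markers, with genes included that passed through their Western arrays.

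Macrophage markers, from cells that carry inflammasome genes, read higher on Western diet as well. Of 20 macrophage markers, 17 passed the filter, 16 of them higher on Western diet in both strains, against 19.3% of all genes above the filter, and their summed intensity was 10813 in B6 chow, 13390 in Ath29 chow, 20997 in B6 Western and 18902 in Ath29 Western. Of these 17, 5 in B6 and 4 in Ath29 mice were at least 2-fold higher, against 4.11% and 1.33% of all. This list, too, was chosen with earlier results known, and its counts are descriptions. The markers of highest level were Lyz1, a lysozyme, with 0.58 in B6 and 0.43 in Ath29 mice, and Csf1r, the receptor for macrophage growth factor, with 0.55 and 0.30. Ctss, a lysosomal protease, gave 1.43 and 1.24, and Cd36, a receptor for oxidised lipoproteins that fat cells also carry, 1.56 and -0.52. Cd14 lay at the floor on every array. The part of these markers in the Casp1, Nlrp3 and Il33 values was not tested, and in whole tissue more cells of a type and more RNA per cell cannot be told apart.

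Endothelial and fibroblast markers, from cells that store interleukin 33, gave the values that follow. The 9 endothelial genes above the filter, of 11 listed, summed to 3795 in B6 chow, 3426 in Ath29 chow, 3508 in B6 Western and 3795 in Ath29 Western, with medians between diets of -0.09 and 0.18. The 9 fibroblast genes summed to 41608, 37592, 35860 and 37541, with medians of -0.22 and 0.12. Fat markers, 9 of 12 above the filter, summed to 19441, 25551, 30652 and 22087. Higher on Western diet were 9 of these 9 in B6 and 0 of 9 in Ath29 mice. Of all 11716 genes above the filter, it was 43.4% and 56.2%. Heart muscle markers, 9 of 10 above the filter, summed to 1001, 735, 9563 and 649, highest in B6 Western. The part of these lists in the members' values was not tested.

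Neutrophils, mast cells and lymphocytes were also followed, since they carry interleukin 1 receptors or respond to interleukin 33. Of 12 neutrophil markers, 10 had a probe set and 7 passed, with sums of 544, 593, 581 and 617 in B6 chow, Ath29 chow, B6 Western and Ath29 Western, and Cxcr2 at the floor throughout. Of 9 mast cell markers 5 passed, with sums of 162, 361, 380 and 308. Of 11 lymphocyte markers 9 had a probe set and 2 passed, with sums of 186, 199, 167 and 155, and Cd3e, Cd3g and Cd4 were at the floor. Smooth muscle markers, 10 of 10 above the filter, summed to 28079, 23318, 25405 and 25806, lowest in Ath29 chow.

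Ath29 chow, the array where Il1r1 was lowest, also stood apart in a control. The 3' to middle ratio of the actin control was 10.2 in Ath29 chow, against 5.10 in B6 chow, 5.63 in B6 Western and 7.62 in Ath29 Western, while that of Gapdh was lowest there, at 8.87, and 9.23 to 10.6 on the others. The 3' to 5' ratio of actin was 24.4, 31.5, 25.4 and 28.5 in B6 chow, Ath29 chow, B6 Western and Ath29 Western. For Gapdh it was 31.3, 22.8, 29.0 and 28.0 in the same order. All 4 arrays thus read far less signal at the 5' end of these controls, not Ath29 chow alone. The part of these ratios in the values of Il1r1 or of other members was not tested. By the root mean square difference of median-centred log2 profiles over the 4 arrays, the genes most like Il1r1 among 11716 were Rsl24d1 at 0.18, Gm17501 at 0.20, Ccn1 at 0.23, Eml1 at 0.29 and Tex47 at 0.30. Since they were picked by this profile, a low value in Ath29 chow follows from the choice. Ccn1, an early response gene of matrix signalling, read 557.17 there and 1705.99 in B6 chow.

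On chromosome 9, Casp1 is the eighth and Il18 number 199 of 649 measured genes in gene order. Whether the donor stretch of Ath29 mice holds either gene was not known from the sources used here. Next to Casp1 lies Casp4, the inflammatory caspase of the non-canonical inflammasome, with strain differences of -0.44 on chow and -0.21 on Western diet and diet differences of 0.23 and 0.46. Gria4, on its other side, gave -0.38 and 0.45 between strains. Next to Il18, Pts gave 0.35 and -0.78 between strains and Sdhd, a subunit of respiratory complex II, 0.57 and -0.41. Further out were Kbtbd3, Msantd4, Casp12 and Pdgfd around Casp1, and Plet1os, Plet1, Timm8b and Nkapd1 around Il18. The largest strain difference among these was that of Plet1os, 0.93 on chow, with -0.25 on Western diet. Of the 3 measured genes on each side of Casp1 and of Il18, none was 2-fold different between strains on either diet. Among all 19152 probe sets above the filter, 2.07% were higher and 2.16% lower in Ath29 on chow. On Western diet it was 0.976% and 2.15%. At such shares a count of none in so few genes says nothing particular about these stretches.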

How the data were processed

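RNA was labelled with biotin for Affymetrix arrays (8 ug per sample, per the labels' protocols), 1 array for each of 4 groups. The labels disagree on tissue: the source is aorta and the extraction text says liver. The values the authors deposited are intensity readings of each probe set, linear in scale as judged from their range. No source used here states the software, the background correction or the normalization.

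Probe sets were named by the platform annotation. Of 45101, 34958 had 1 gene symbol, 932 several and 9160 none, and 64 were controls. Symbols and chromosomes came from a gene table of GRCm38.p6 through gene identifiers. Intensities were taken to log2 and shifted to a common median (factors 0.990 to 1.02), with a floor at the 25th percentile of all values. Probe sets above the median mean level were kept. Listed genes were read from their probe set with the highest mean. limma 3.58.1 in R 4.3.3 gave the additive fit, with 1 residual degree of freedom per probe set and a variance moderated over all probe sets. Counting and fit were tested on simulated data.

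The members, gene lists and alternatives were chosen with earlier results of these data known. Named genes were all members, genes of a pathway list at least 2-fold different in the same direction in both comparisons of a kind and up to 4 more by mean level, up to 4 genes of a marker list by mean level, the 5 genes most like the member of largest range, and 3 measured neighbours on each side of Casp1 and Il18. Pycard, Naip5, Ccl2, Cd14, Cxcr2, Cd3e, Cd3g and Cd4 were named after their values were seen.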

Additional observations from a re-analysis of the deposited data

Results flagged for a closer look

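The Il1r1 probe set 1448950_at differed with diet in opposite directions, by -0.34 in B6 and 1.37 in Ath29 on the log2 scale, a strain by diet difference of 1.71. The Il1rn probe set 1425663_at differed between strains in opposite directions, by -1.13 on chow and 0.29 on Western diet, a difference of 1.42. Both were listed because the arrays of one group moved one way and those of the other the opposite way with at least 1 difference past 2-fold. Neither difference was tested, as each group has 1 array, and both rest on an Ath29 chow value below 27.4.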

How the results depend on the processing

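No paired analysis was possible because each group has 1 array, and for the same reason no array could be left out of its group. The 3 other scalings (quantile normalization, a common 75th percentile, and none) moved the 32 differences of the 8 probe sets above the filter by at most 0.11 log2 units and turned the sign of 2, both of them Il33 strain differences. Over 5 alternatives in scaling and floor, the Il33 diet difference ran from 0.69 to 0.75 (B6) and from 0.66 to 0.72 (Ath29). That of Casp1 ran from 0.41 to 0.46 and from 0.28 to 0.36. Both genes read far above the floor, so a change of floor could not move them and the ranges come from the 3 scalings. The counts of 2-fold members were 2, 0, 0 and 2 for strain on chow, strain on Western diet, diet in B6 and diet in Ath29 mice. With no filter they were 2, 1, 1 and 2 of 17, the added ones being Il1b and an Il1rn probe set below it. With a filter at the 75th percentile, which leaves 2 member probe sets, they were 0 throughout. A floor at the 40th percentile left 1 for strain on chow. At 1.5-fold the counts were 2, 0, 2 and 3 in the order above, and at 3-fold they were 1, 0, 0 and 1. The shares of all probe sets called under these other settings are not given here, so the counts only describe the members. Chosen after seeing the data, the demand that both arrays read above 27.4 left 0 in each comparison. The additive limma fit called 0 members under each of 8 alternatives. Signal near background limits what Il1a, Il1b, Il1r2, Il1rn and Il1r1 can show.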
